A study of Mus musculus with 8 samples.

Results

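The Ly6 surface genes Ly6a, Ly6c1, Ly6c2, Ly6e and Ly6k were followed in single pancreatic T cells of NOD mice, an inbred strain in which T cells destroy the insulin-producing beta cells and diabetes develops without induction. The 5 genes were taken by symbol, without a threshold on their values but with earlier results of these data known, and are 5 of the 32285 features in the count matrices. They were read in 70288 T cells out of 80470 cell barcodes. A T cell had at least 2 UMIs (unique molecular identifiers, 1 per captured RNA molecule) over Cd3d, Cd3e, Cd3g, Trac, Trbc1 and Trbc2. CD4-gated cells had a UMI of Cd4 and none of Cd8a or Cd8b1 (27463 cells). CD8-gated cells had the reverse (22066 cells) and were split into 6497 with a UMI of Ccl5, a chemokine of memory and effector CD8 T cells, and 15569 without. Foxp3-positive T cells had a UMI of Foxp3, the transcription factor that defines regulatory T cells (2564 cells, of which 1124 were also CD4-gated and 249 CD8-gated), and were set against 26339 Foxp3-negative CD4-gated cells.

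The study asked how CD4 and CD8 T cells in the pancreas change under a drug pair called PPCA, given to new-onset diabetic mice. All 8 libraries came from spontaneously diabetic NOD mice that the labels call female and 3 to 4 months old (the treatment text has a wider age range). The onset library came from mice at a blood glucose of 250 mg/dl and the active library from mice above 600 mg/dl, both untreated and harvested on day 1. PPCA mice received Nutlin-3 at 50 mg/kg, an MDM2 inhibitor that raises p53, with MK-1775 at 25 mg/kg, a Wee1 kinase inhibitor, and vehicle mice the solvent of ethanol, Tween 20 and PEG300. There was 1 PPCA and 1 vehicle library for each of days 2, 3 and 4, and each day is used as a pair. The day is that of the sample name and was read as the day of harvest. The 3 libraries of an arm are thus different time points, and SDs over them include differences between days. Cells were sorted for CD45, CD3 and the T cell receptor beta chain and frozen before they were processed together. How many mice went into a library is not stated, so p-values measure the spread between these libraries, which may be technical.

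The libraries held 6164 to 11529 T cells with a median of 3846 to 6457 UMIs per cell, and 363655449 T cell UMIs in all. Between 9 and 30 cell barcodes were shared by any pair of libraries. The label check went against the labels in 4 libraries. Vehicle on days 2 and 3 with PPCA on days 3 and 4 carried 189 to 276 CPM (UMIs among 1000000 UMIs of the same cells) of 4 Y-linked genes, while the other 4 libraries carried at most 0.184 CPM and had Xist. For Ly6a, Ly6e and Ly6k, comparisons of gates within a library are given below for both kinds of library. In PPCA against vehicle 2 of the 3 pairs mix the kinds. There, the members tested and the interferon genes are also given with the Y-linked transcripts as a factor. Gate comparisons of other genes, other lists under PPCA and the difference of the PPCA effect between gates are not split in this way. All 6 T cell genes were present in every gate, at a summed 1502 to 2435 CPM. Summed B cell markers stayed at or below 23.6 CPM, monocyte and macrophage markers at or below 10.2 CPM and neutrophil markers at or below 7.63 CPM in each gate and library. The T cell gate itself allowed at most 1 UMI over Cd79a, Cd79b, Ms4a1, Lyz2, Csf1r and Cd68. These genes are on the B cell and the monocyte and macrophage lists, so the low sums of both were in part set by the gate. Of 4 plasmacytoid dendritic cell genes, the defining receptor Siglech was at or below 0.0546 CPM in each library, while Bst2, Ccr9 and Tcf4, which T cells also express, brought the list to 97.0 to 250 CPM over all T cells and up to 390 CPM in 1 gate (Ccl5-negative, PPCA day 2). Of 6 endothelial genes, 1 reached 1 CPM (Pecam1, which T cells also express). A list of 12 genes of exocrine and endocrine pancreas, which T cells do not make, summed to between 10.3 and 127 CPM in the T cells of a library. In single gates it reached 297 CPM in the Foxp3-positive cells of vehicle on day 3, against 94.5 CPM in their Foxp3-negative reference, and 248 CPM in the Foxp3-negative CD4-gated cells of PPCA on day 3. Its part in the results was not tested.

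Ly6 proteins are small cell surface proteins of the Ly6/uPAR family, rich in disulphide bonds and mostly held in the outer membrane by a glycosylphosphatidylinositol (GPI) anchor. Ly6a encodes Sca-1, the antigen used to isolate mouse blood stem cells, which rises on T cells with activation and with interferon. Ly6c1 and Ly6c2 are near-identical genes that together encode Ly-6C, a marker of inflammatory monocytes and, in many strains, of memory CD8 T cells. Ly6e, also called Sca-2 or TSA-1, is found on immature thymocytes and is induced by interferon in many cells. Ly6k is best known from the testis, where it is needed for sperm function.

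The genes lie together on chromosome 15 in the RefSeq annotation of GRCm38.p6, in the order Ly6k, Gml, Gml2, Cyp11b1, Cyp11b2, Ly6m, Ly6e, Ly6i, Ly6a, Ly6c1 and Ly6c2. The library kit reads the 3′ ends of transcripts, so the sequence there decides which members can be told apart. Over the last 300 bases of the reference transcripts, Ly6c1 and Ly6c2 were 93.5% identical and shared 75 of 251 stretches of 50 bases. Ly6a was 80.1% and 81.0% identical to them and shared 0 stretches of 50 bases. Ly6e and Ly6k were 46.6% to 50.2% identical to the other members and to each other. Counts of Ly6c1 and Ly6c2 are therefore uncertain between this pair, and the counts of Ly6a, Ly6e and Ly6k do not share such stretches with any other member.

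The regions just upstream of Ly6c1 and Ly6c2 are shown because these were the 2 members almost absent from the T cells. Both are RefSeq reference sequence of GRCm38.p6, 250 bases before an annotated start, minus strand, chr15:75048838-75049087 for Ly6c1 and chr15:75111972-75112221 for Ly6c2, and neither is NOD sequence. Each gene has 2 annotated starts, and the most alike pair of regions is shown. Capitals mark runs of at least 12 bases that occur in both.
Ly6c1: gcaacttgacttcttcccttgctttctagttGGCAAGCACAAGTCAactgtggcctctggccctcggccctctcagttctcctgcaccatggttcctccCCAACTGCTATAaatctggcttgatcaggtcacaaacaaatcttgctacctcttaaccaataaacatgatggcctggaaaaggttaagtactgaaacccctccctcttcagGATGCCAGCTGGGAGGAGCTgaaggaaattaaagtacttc
Ly6c2: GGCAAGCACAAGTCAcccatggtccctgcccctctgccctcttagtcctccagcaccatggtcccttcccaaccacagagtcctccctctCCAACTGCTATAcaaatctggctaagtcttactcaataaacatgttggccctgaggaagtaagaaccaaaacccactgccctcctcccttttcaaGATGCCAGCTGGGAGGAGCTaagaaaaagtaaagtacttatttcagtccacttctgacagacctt
The regions were 57.7% identical over 284 aligned positions, against 45.0% to 46.4% in the other 3 pairings of starts, and 3 exact runs, the longest of 20 bases, covered 47 bases of each. No match to TTCNNNGAA, the letters bound by interferon-gamma activated STAT factors, or to the interferon-stimulated response element, searched as GAAA, 2 unspecified bases and GAAA, was found in either window on either strand. In all, 7.02% of 32851 RefSeq promoters of 300 bases hold the former and 2.98% the latter.

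Ly6c1 and Ly6c2 were close to absent from pancreatic T cells of every library. Ly6c1 had 221 UMIs in all, held by 211 of 70288 T cells (0.300%). Its UMIs in T cells were 33 in the active library, 41 in onset, 23, 17 and 0 under vehicle on days 2, 3 and 4, and 70, 34 and 3 under PPCA. The PPCA library of day 2 held the most and the vehicle library of day 4 none, which allows up to 0.0521 CPM at 3 counts. Ly6c2 had 25 UMIs in all, 0 to 8 per library, in 25 T cells (0.0356%). The kept cells outside the T cell gate were 682, and in them 20 UMIs of Ly6c1 sat in 4 cells and 7 UMIs of Ly6c2 in 3 cells. Of the 221 Ly6c1 UMIs, 114 were in CD8-gated and 59 in CD4-gated cells, a pooled 0.907 CPM against 0.416 CPM.

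Ly6a, in contrast, had a UMI in 64.0% of T cells (44.3% after each cell was thinned to 2000 UMIs), and its level was higher in CD8-gated than in CD4-gated cells. In CD4-gated cells Ly6a stood at 363.5 CPM in active, 283 CPM in onset, 336, 257 and 202 CPM under vehicle on days 2, 3 and 4, and 386, 273.5 and 163 CPM under PPCA. In CD8-gated cells the same libraries held 1048, 842, 925, 775, 623, 1238, 908 and 523 CPM, in the order active, onset, vehicle days 2 to 4 and PPCA days 2 to 4. The lowest CD8 value lay above the highest CD4 value, so the gates did not overlap. Within a library the CD8 level was 2.75 to 3.32 times the CD4 level, higher in 8 of 8 libraries. The fit with library as a block gave 1.65 on the log2 scale (SE 0.03, edgeR adjusted p = 4.13e-15). This stood against a background in which 46.1% of 11569 genes were called between the gates, 2677 higher and 2656 lower in CD8-gated cells. With library totals in place of TMM scaling 36.8% of the called genes were higher in CD8-gated cells, against 50.2% with TMM, and Ly6a kept its call. The log2 fold change was 1.63 in the libraries without and 1.67 in those with Y-linked transcripts.

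Ly6e was also higher in CD8-gated cells, by a much smaller factor. Its CD4-gated levels were 155 CPM in active, 203 CPM in onset, 117, 109 and 83.35 CPM under vehicle on days 2, 3 and 4, and 125, 112 and 48.9 CPM under PPCA. Its CD8-gated levels were 188 CPM in active, 251 CPM in onset, 154, 141 and 110 CPM under vehicle, and 160, 150 and 59.0 CPM under PPCA. The ranges of the gates overlapped, but each library was higher in CD8 than in CD4 cells, by 1.21 to 1.34 times. The log2 fold change was 0.39 (SE 0.03, edgeR adjusted p = 9.03e-09), 0.36 in the libraries without and 0.42 in those with Y-linked transcripts. Without the library as a block the adjusted p was 0.383, and the libraries spanned 48.9 to 203 CPM within the CD4 gate alone.

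Ly6k did not separate the gates. It stood at 9.12, 30.1, 10.1, 7.56, 7.70, 7.99, 20.9 and 4.45 CPM in CD4-gated cells and at 7.56, 27.2, 7.68, 7.87, 10.8, 8.01, 23.1 and 6.44 CPM in CD8-gated cells, in the order active, onset, vehicle days 2 to 4 and PPCA days 2 to 4. The CD8 level was above the CD4 level in 5 of 8 libraries, and the log2 fold change was 0.08 (SE 0.09, edgeR adjusted p = 0.529), 0.02 in the libraries without and 0.13 in those with Y-linked transcripts. The onset library and the PPCA library of day 3 held the highest levels in both gates, with 20.9 CPM or more, and the other 6 libraries held at most 10.8 CPM.

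**Figure D1:**
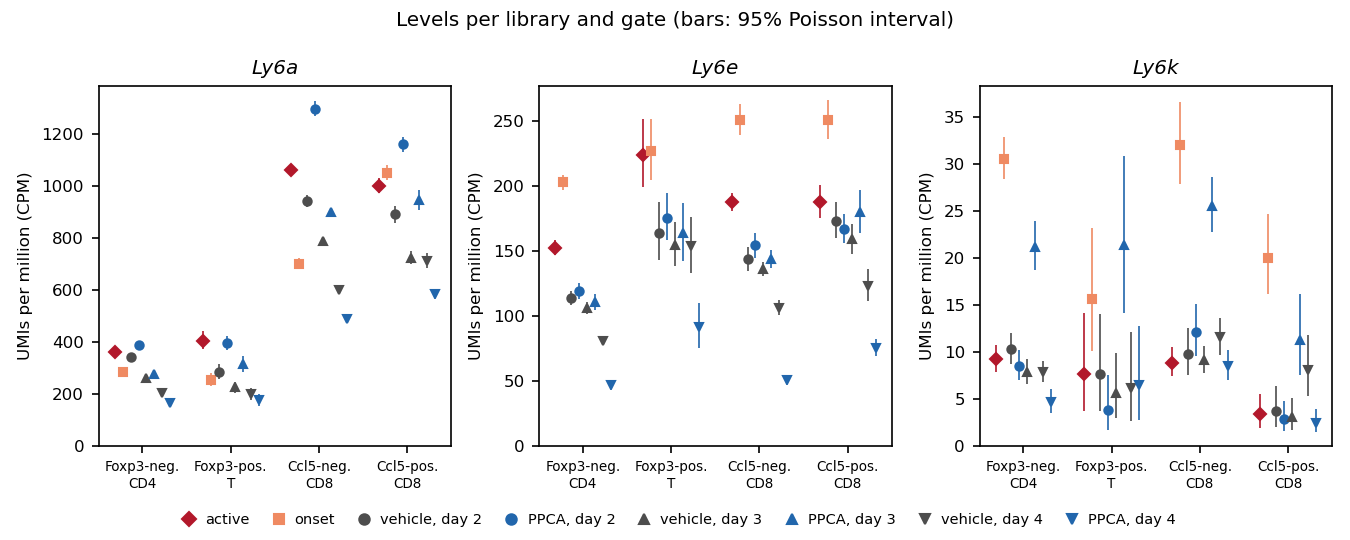
Levels of Ly6a, Ly6e and Ly6k in CPM (vertical axes, each from 0) by gate (horizontal axes), with 1 point per library and bars for the 95% Poisson interval, which covers counting error only. Both CD8 gates of Ly6a lie above both other gates, at 491 CPM or more, and Ly6k is highest in the onset and PPCA day 3 libraries in each gate.

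The genes that differ between CD8 and CD4 cells in the lists fixed for this work give the setting of these levels, beside the 46.1% of all genes called. Of 16 memory and effector genes, 15 were higher and 1 lower in CD8-gated cells, with a median log2 fold change of 3.02 against 0.00 over all genes tested. They were led by Nkg7, a cytotoxic granule protein (4.48), Itgae, the integrin alpha chain of tissue-resident T cells (4.35), and Ccl5 (4.26), while Cd44, an adhesion receptor of activated cells, was lower (-0.46). Of 16 interferon response genes, 8 were higher and 2 lower, with a median of 0.15. Ifit3 (0.91), Gbp2 (0.57) and Isg20 (0.43) were the highest, and Oasl2 (-0.48) and Ifi27l2a (-0.74) the lower ones. Of 18 genes of GPI anchor synthesis, which supply the anchor of Ly6 proteins, 4 were higher and 1 lower, 27.8% of the list against 46.1% of all genes, with a median of 0.04. Piga, which acts in the first step of the pathway, had a log2 fold change of 0.98 (edgeR adjusted p = 1.85e-09) and Pigc of -0.45.

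The files hold 30 other genes of the Ly6/uPAR family, and 3 of them reached 1 CPM over all T cells. They were Plaur, the urokinase receptor, at 41.5 CPM, Lypd6b at 9.30 CPM and Ly6g5b at 1.05 CPM. Another 11 had no UMI in any T cell. Plaur (0.42, SE 0.09) and Ly6g5b (1.04, SE 0.22) were higher in CD8-gated than in CD4-gated cells, 2 of the 3 tested, beside 46.1% of all genes called.

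Split by Ccl5, the CD8-gated cells differed in Ly6k, while Ly6a and Ly6e did not pass the test. Ly6k in Ccl5-positive cells was 3.42 CPM in active, 20.0 CPM in onset, 3.71, 3.04 and 8.08 CPM under vehicle on days 2, 3 and 4, and 2.87, 11.2 and 2.48 CPM under PPCA. In Ccl5-negative cells it was 8.84 CPM in active, 31.96 CPM in onset, 9.82, 9.13 and 11.5 CPM under vehicle, and 12.1, 25.5 and 8.47 CPM under PPCA. Every library was lower in the Ccl5-positive cells, at 0.237 to 0.6997 times the Ccl5-negative level, on 13 to 90 UMIs per library. The log2 fold change was -1.29 (SE 0.13, edgeR adjusted p = 7.03e-08), with 41.5% of 10392 genes called in this comparison. With the Ccl5 cut at 3 UMIs it was -2.55 and in cells thinned to 2000 UMIs -2.27, both further from 0. It was -1.11 in the libraries without and -1.54 in those with Y-linked transcripts, and -1.52 without the onset and PPCA day 3 libraries.

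Ly6a differed by -0.02 on the log2 scale between these cells (SE 0.05, edgeR adjusted p = 0.782), 0.02 in the libraries without and -0.06 in those with Y-linked transcripts, and was higher in 4 of 8 libraries. Its ratio ran from 0.894 in the PPCA library of day 2 to 1.499 in onset. Ly6e was higher in the Ccl5-positive cells of 7 of 8 libraries, by up to 1.49 times in the PPCA library of day 4, a log2 difference of 0.09 (SE 0.05, edgeR adjusted p = 0.167). This value depended on the libraries and on the scaling. Without the onset library it was 0.13 (edgeR adjusted p = 0.0397), in the libraries with Y-linked transcripts 0.25 (0.000825) and in those without -0.05 (0.522), a difference that was not tested, and with library totals 0.20 (0.00184). Under library totals 74.6% of called genes were higher in Ccl5-positive cells, against 46.9% with TMM, and the median of all genes moved from -0.02 to 0.09.

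The same split, with 41.5% of all genes called, moved the listed genes of memory and naive cells in opposite directions. All 16 memory and effector genes, among them the gate gene Ccl5 itself, were higher, and granzyme Gzmk (7.34) and the inhibitory receptor Klrg1 (7.24) had the largest log2 fold changes after Ccl5. Of 10 naive and central memory genes, 8 were lower and 0 higher. The lowest were Lef1 (-1.19), Bach2 (-1.17), both transcription factors of naive T cells, and Ccr7 (-1.08), the chemokine receptor for lymph node entry. Both family genes tested were lower in Ccl5-positive cells, with log2 differences of -1.29 for Plaur (SE 0.07) and -0.92 for Lypd6b (SE 0.13). Among interferon genes 6 were higher and 6 lower, from Isg20 (1.46) to Oasl2 (-0.78), on TMM scaling and so subject to the shift under library totals given above.

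Foxp3-positive T cells held more Ly6e than the Foxp3-negative CD4-gated cells of the same library. Ly6e in them stood at 224 CPM in active, 227 CPM in onset, 164, 155 and 154 CPM under vehicle on days 2, 3 and 4, and 176, 164 and 91.3 CPM under PPCA. In Foxp3-negative CD4-gated cells it stood at 153, 203, 114, 106, 81.1, 119, 111 and 47.0 CPM in the same order. All 8 libraries were higher in the Foxp3-positive cells, least in onset (1.12 times) and most in the PPCA library of day 4 (1.94 times). The log2 fold change was 0.38 (SE 0.06, edgeR adjusted p = 2.59e-06), with 38.2% of 10648 genes called. Without the library as a block the adjusted p was 0.279. Restricting the Foxp3-positive cells to those that were CD4-gated gave 0.40, and the value was 0.33 in the libraries without and 0.41 in those with Y-linked transcripts.

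Ly6a and Ly6k were lower in Foxp3-positive cells by the fit, and both values moved with the processing. Ly6a stood at 406, 256, 286, 225, 199, 396, 314 and 176 CPM, in the order active, onset, vehicle days 2 to 4 and PPCA days 2 to 4, above the Foxp3-negative cells in 4 of 8 libraries. Its log2 fold change with TMM scaling was -0.21 (SE 0.05, edgeR adjusted p = 0.00052), -0.19 in the libraries without and -0.27 in those with Y-linked transcripts, and the adjusted p was 0.445 without the library as a block. It was -0.02 (adjusted p = 0.690) with library totals, which moved the median of all genes from -0.01 to 0.18 and the share of called genes that were higher from 49.8% to 83.9%. Without doublet removal it was -0.09 (adjusted p = 0.137), and in CD4-gated Foxp3-positive cells -0.54. Ly6k had 8 to 28 UMIs per library in Foxp3-positive cells, at 3.80 to 21.3 CPM, a log2 difference of -0.64 (SE 0.15, edgeR adjusted p = 0.00106). It was lower in 6 of 8 libraries, -0.96 in the libraries without Y-linked transcripts, -0.34 (adjusted p = 0.271) in those with them, -0.60 (adjusted p = 0.132) in thinned cells and -1.29 in CD4-gated Foxp3-positive cells, with an adjusted p of 0.314 without the library as a block.

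Foxp3-positive cells also differed in the listed genes, beside 38.2% of all genes called. Of 10 naive genes 9 were lower, led by Lef1 (-1.61) and the interleukin-7 receptor Il7r (-1.28), and 13 of 15 memory and effector genes listed for CD8 T cells were higher, led by Klrg1 (5.37) and Itgae (5.10). Of 15 interferon genes 6 were higher, led by Ifi27l2a (0.87), and 1 lower, Oasl2 (-0.84). Of the family, Lypd6b (-1.66) and Plaur (-1.68) were lower. Lypd1 was called higher (3.29, SE 0.39) on 139 UMIs over all T cells (0.382 CPM). At so low a level a gene passes the low-count filter through the gate where it is high, which fixes its direction. Of 18 GPI anchor genes 0 passed the threshold in edgeR, with 1 at an unadjusted p under 0.05. The Foxp3-positive gate also held CD8 cells, which its reference lacked: the 4 CD8 lineage genes summed to 270 to 418 CPM in it and to 78.7 to 144 CPM in Foxp3-negative CD4-gated cells. With the Foxp3-positive cells restricted to the CD4 gate, where 30.1% of 10478 genes were called, 7 of 12 memory and effector genes tested were higher and 2 lower, and Itgae was 4.96. In that restricted comparison 9 of 10 naive genes were lower, and of 15 interferon genes 5 were higher, with Ifi27l2a at 0.98, and 1 lower, Oasl2 (-0.81). Klrg1 and Lypd1 did not enter that fit, and Lypd6b (-1.43) and Plaur (-1.65) were lower in it.

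**Figure D2:**
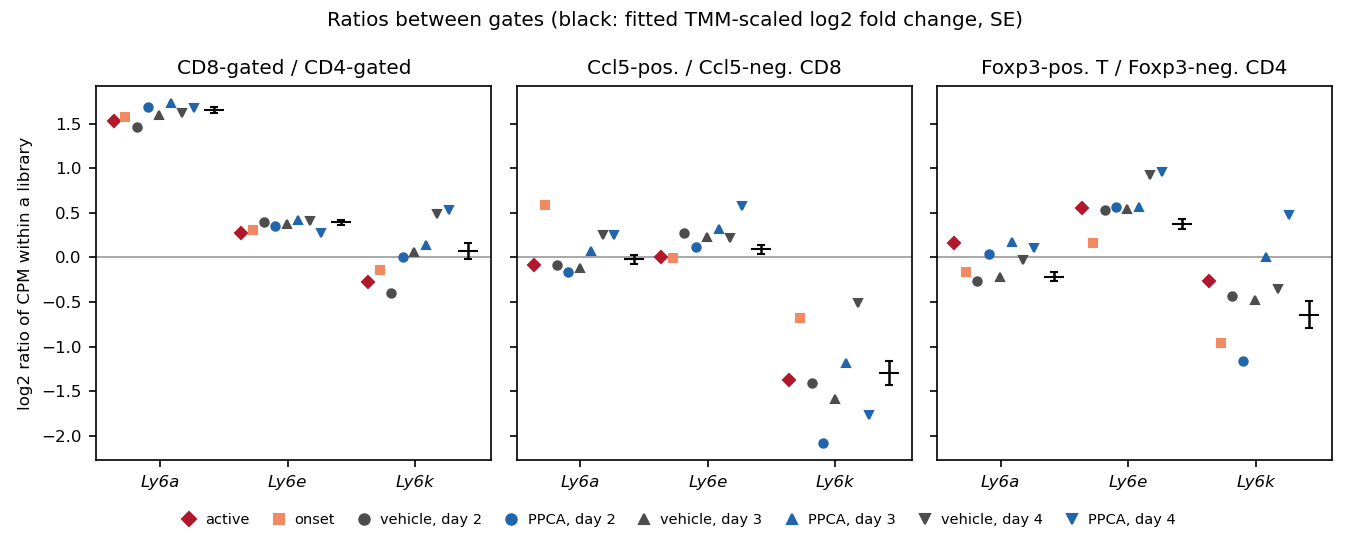
Ratio of levels within each library on a log2 axis (1 point per library) for CD8-gated over CD4-gated, Ccl5-positive over Ccl5-negative and Foxp3-positive over Foxp3-negative cells. The line at 0 marks equal levels, and black marks give the fitted TMM-scaled log2 fold change with its SE. For CD8 over CD4, Ly6a sits between 1.46 and 1.73 in all libraries, which are ratios of 2.75 to 3.32. Ly6e is above 0 in 8 of 8 libraries for Foxp3, and Ly6k is below 0 in 8 of 8 libraries for Ccl5.

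Shares of cells with a UMI were lower for Ly6a in the CD4 than in the CD8 gates. Each cell was thinned to 2000 UMIs, since deeper cells show more genes. Of Foxp3-negative CD4-gated cells 23.7% to 41.4% held Ly6a, against 56.4% to 77.0% of Ccl5-negative and 54.3% to 74.7% of Ccl5-positive CD8-gated cells, over the 8 libraries. Before thinning 38.9% to 66.2% of CD4-gated and 74.7% to 92.1% of CD8-gated cells held it. Ly6e was held by 8.39% to 29.6% of Foxp3-negative CD4-gated, 15.8% to 34.0% of Foxp3-positive and 8.74% to 34.1% of Ccl5-negative CD8-gated cells. Ly6k was held by 1.17% to 5.51% of Foxp3-negative CD4-gated and 0.271% to 3.08% of Ccl5-positive CD8-gated cells.

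B-like cells, with at least 3 UMIs of B cell markers and none of the T cell gate genes, were few, 29 after thinning. Their median depth was 3982 UMIs against 4816 in T cells. In them 1 of 29 cells held Ly6a (3.45%) and 0 of 29 held Ly6k, against 44.3% and 2.32% of T cells. With so few cells 0 of 29 allows a share of up to 10.3%, above the share in T cells, and gives no background for Ly6k. Ly6e was in 12 of 29 (41.4%), so the shares of Ly6e in T cells cannot be set against a cell type without it here. Ly6k in Ccl5-positive cells rested on 2 to 26 thinned cells with a UMI per library, with 3 or fewer in active and in PPCA on day 2.

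**Figure D3:**
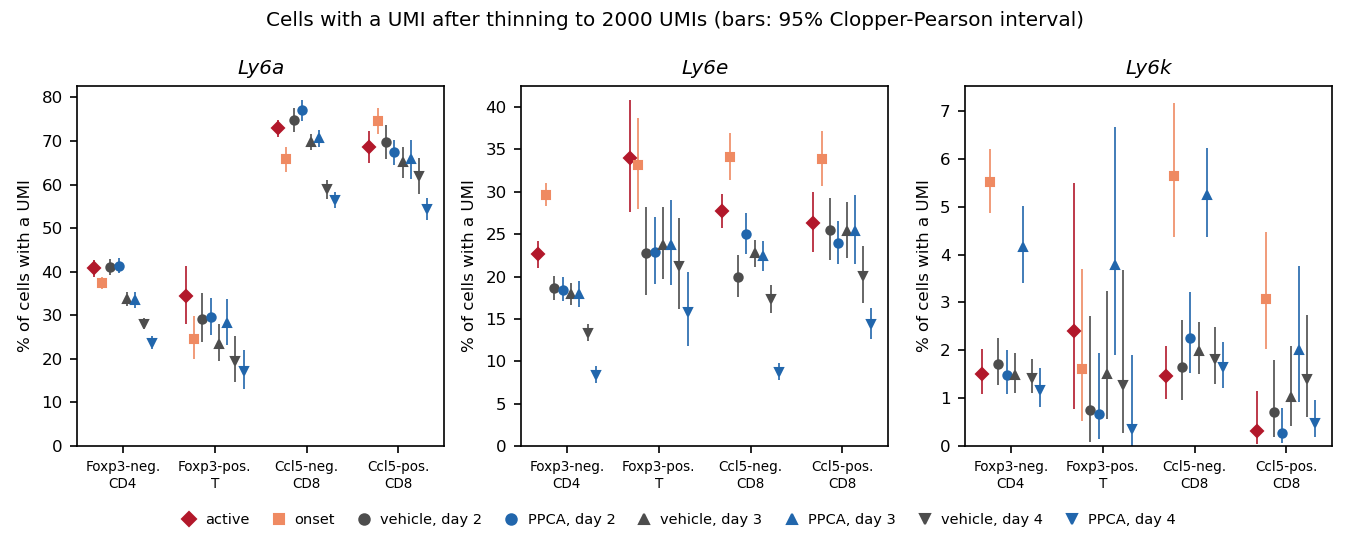
Percent of cells with at least 1 UMI after thinning each cell to 2000 UMIs, by gate and library, with 95% Clopper-Pearson bars that cover counting error only. Ly6a is found in 54.3% or more of the cells of both CD8 gates and in at most 41.4% of the CD4 and Foxp3-positive gates.

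Cells with both Ly6a and Ly6e were compared with the product of the shares of each. The ratio of observed to expected double-positive thinned cells ran from 1.01 to 1.09 in Ccl5-negative CD8-gated, from 0.997 to 1.10 in Foxp3-negative CD4-gated and from 0.953 to 1.23 in Ccl5-positive CD8-gated cells. In Foxp3-positive T cells, with 15 to 32 such cells per library, it ran from 0.851 to 2.15 with a median of 1.12. Pairs with Ly6k rested on at most 93 double-positive cells in a library, with medians from 0.807 to 1.67. These ratios are descriptions, taken over cells that each held 2000 UMIs after thinning.

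Under PPCA 0 of the tested Ly6 genes passed the threshold of edgeR or DESeq2 in any gate, and at an unadjusted p under 0.05 edgeR had 1, Ly6c1 in CD8-gated cells. In CD4-gated cells Ly6a averaged 265 ± 67.2 CPM under vehicle and 274 ± 111 CPM under PPCA (SD, n = 3 each), while the fit within days on TMM-scaled counts gave a log2 difference of -0.09 (SE 0.12, edgeR adjusted p = 0.904) and library totals gave -0.0050. In CD8-gated cells it averaged 775 ± 151 and 890 ± 358 CPM, and it was 0.04 (SE 0.13, edgeR adjusted p = 0.949). With Y-linked transcripts as a factor the values were -0.09 and 0.04 (edgeR adjusted p = 0.804 and 0.901). In both gates the PPCA library had more Ly6a than its vehicle pair on days 2 and 3 and less on day 4. The background was 0% of 11615 genes in CD4-gated cells, with 780 at an unadjusted p under 0.05 and 34 called by DESeq2, and 0.0172% of 11610 genes in CD8-gated cells, with 935 and 41.

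Among Ly6a, Ly6e and Ly6k, Ly6e had the lowest unadjusted p for CD8-gated cells, 0.0862, and its value rested on day 4. In CD8-gated cells it averaged 135 ± 22.5 CPM under vehicle and 123 ± 55.8 CPM under PPCA, a log2 difference of -0.33 (SE 0.17, edgeR adjusted p = 0.677), and in CD4-gated cells it was -0.29 (SE 0.16, edgeR adjusted p = 0.778). The log2 ratios of CPM in CD8-gated cells were 0.06 on day 2, 0.09 on day 3 and -0.90 on day 4, so the groups overlapped. Leaving out day 4 gave -0.05 in CD8-gated and -0.04 in CD4-gated cells. With the Y-linked transcripts as a factor, which leaves 1 residual degree of freedom, Ly6e in CD8-gated cells was -0.33 with an edgeR adjusted p of 0.0219, and 358 genes were called. In CD4-gated cells it was -0.29 with an adjusted p of 0.175. The day 4 pair set a PPCA library with Y-linked transcripts against a vehicle library without them, and day 3 alone had both libraries of 1 kind. The PPCA library of day 4 also had the lowest summed level of the 6 T cell genes, 1619 CPM against 1788 to 2149 CPM in the others, and the lowest median depth, 3846 UMIs per cell, and their part in the result was not tested.

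Ly6k under PPCA and vehicle differed from day to day. The day 3 pair differed by a log2 ratio of 1.47 in CD4-gated and 1.55 in CD8-gated cells, while day 4 differed by -0.79 and -0.75 and day 2 by -0.34 and 0.06. The log2 fold changes were 0.09 (SE 0.38) in CD4-gated and 0.25 (SE 0.36) in CD8-gated cells (edgeR adjusted p = 0.975 and 0.888), and without day 3 they were -0.59 and -0.41. With Y-linked transcripts as a factor they were 0.10 and 0.32 (edgeR adjusted p = 0.947 and 0.508). In Ccl5-negative cells it was 0.43 (SE 0.29, edgeR adjusted p = 0.772), and 0.90 without day 4 (edgeR adjusted p = 0.00916).

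Ly6c1 had the largest treatment ratio of the members, on few molecules. On days 2, 3 and 4 it had 9, 10 and 0 UMIs in CD8-gated cells with vehicle and 38, 19 and 3 with PPCA, higher under PPCA on each of the 3 days. This was 0.449 ± 0.449 CPM against 1.56 ± 1.56 CPM (SD, n = 3 each). The log2 fold change was 1.65 (SE 0.45, unadjusted p = 0.00694, edgeR adjusted p = 0.490), and 1.64 with Y-linked transcripts as a factor (edgeR adjusted p = 0.150). Without day 2, Ly6c1 did not pass the low-count filter in CD8-gated cells. Leaving out day 3 or day 4 gave 1.56 to 1.94. Ly6c1 entered the fit only in CD8-gated cells and in the test of the difference between gates, and Ly6c2 passed the low-count filter in none.

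In the subsets the PPCA values were of the same kind. In Ccl5-positive CD8-gated cells Ly6e was -0.27, Ly6a 0.08 and Ly6k -0.13, with 0.0201% of 9975 genes called, and with Y-linked transcripts as a factor they were -0.27, 0.08 and -0.05. In Ccl5-negative cells Ly6e was -0.37 (edgeR adjusted p = 0.719) and Ly6a 0.04, with 0% of 11118 genes called, 804 at an unadjusted p under 0.05 and 34 called by DESeq2, and with Y-linked transcripts as a factor Ly6e was -0.37 with an adjusted p of 0.0296, Ly6a 0.04 and Ly6k 0.50. Without day 4 Ly6e was -0.03 in Ccl5-negative and -0.06 in Ccl5-positive cells. In Foxp3-positive T cells Ly6a was 0.24 and Ly6e -0.20, with 0.0594% of 8412 genes called, and with the Y-linked factor they were 0.23 and -0.22. Leaving out a day, Ly6a there ran from 0.10 without day 2 to 0.42 without day 4. The difference of the PPCA effect between CD8-gated and CD4-gated cells was 0.13 for Ly6a (SE 0.06, unadjusted p = 0.0503, edgeR adjusted p = 1), with 0.00823% of 12152 genes called. For the shares of cells with a UMI, the exact sign-flip test over 3 days cannot go below 0.25, and the mean differences for Ly6a were -1.505 percentage points in CD4-gated and -1.12 in CD8-gated cells, and -8.20 and -5.61 without thinning.

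Interferon induces Ly6a and Ly6e in many cells, and a list of interferon response genes without the members gave these values beside them. Of the 16 listed, 12 lay above 0 under PPCA in CD8-gated cells, with a median log2 fold change of 0.86 against 0.00 for all genes. Of them 1 passed the threshold, Ifit3 (2.12, SE 0.19, edgeR adjusted p = 0.0456), beside 0.0172% of all genes. This call was lost without doublet removal and without day 3, where 0 genes passed. In Ccl5-positive cells 13 of 16 lay above 0 and Ifit3 passed (1.90), beside 0.0201% of all genes. In Foxp3-positive T cells 3 of 14 passed, Ifit3 (3.62), Ifit1 (1.89) and Isg15 (1.53), beside 0.0594% of all genes. Without day as a block 0 genes passed in these 3 gates. With Y-linked transcripts as a factor Ifit3 was 2.06 in CD8-gated, 1.91 in Ccl5-positive and 3.92 in Foxp3-positive cells, where Ifit1 was 2.04 and Isg15 1.46, and each of these passed. In CD4-gated cells 12 of 16 lay above 0, with a median of 0.81, and 0 passed in edgeR. At an unadjusted p under 0.05 there were 9, beside 780 of all 11615 genes. With that factor the medians were 0.83 in CD8-gated and 0.74 in CD4-gated cells, 11 genes were called higher and 1 lower of 16 in CD8-gated and 10 higher of 16 in CD4-gated cells, and 3.08% and 1.08% of all genes were called. Of the memory and effector, naive and GPI anchor genes 0 passed in edgeR for CD8-gated cells. At an unadjusted p under 0.05 there were 4 of 16, 1 of 10 and 0 of 18, beside 935 of all 11610 genes.

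**Figure D4:**
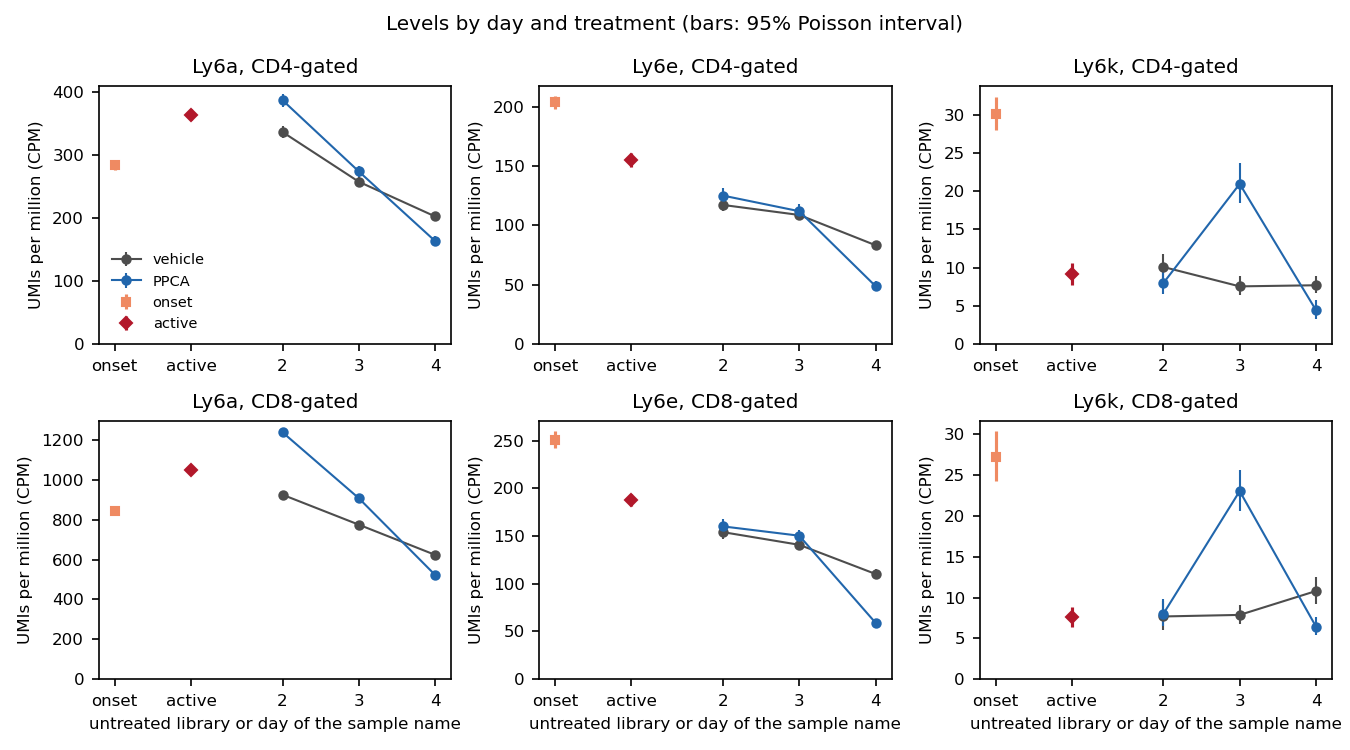
Levels in CPM of Ly6a, Ly6e and Ly6k in CD4-gated and CD8-gated cells by day of the sample name for vehicle and PPCA, with the onset and active libraries to the left and bars for the 95% Poisson interval. Ly6a and Ly6e are lower on day 4 than on day 2 in both arms, the PPCA library of day 4 holds the lowest values, and Ly6k is high in onset and in PPCA on day 3.

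Active and onset diabetes were 1 library each, so their difference has no replicate check and intervals cover counting error only. Ly6a was 1.28 times as high in active as in onset in CD4-gated cells (95% interval 1.24 to 1.33) and 1.24 times in CD8-gated cells (1.21 to 1.28). It was 1.51 times in Ccl5-negative (1.46 to 1.56) and 0.952 times in Ccl5-positive cells (0.914 to 0.991), where it was 1.00 without doublet removal. Ly6e went the other way, 0.761 times in CD4-gated (0.727 to 0.797) and 0.747 times in CD8-gated cells (0.711 to 0.785), and 0.986 times in Foxp3-positive cells (0.843 to 1.15). Ly6k was 0.304 times in CD4-gated (0.255 to 0.359) and 0.278 times in CD8-gated cells (0.227 to 0.339).

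The genes whose levels followed each member most closely were taken over 32 sums, 4 cell subsets in 8 libraries. The subsets were Foxp3-positive and Foxp3-negative CD4-gated and Ccl5-positive and Ccl5-negative CD8-gated cells, which share no cells. This is a description, since all sums of a library share its RNA. Nearest to Ly6a was Runx3, the transcription factor of the CD8 lineage (Pearson r = 0.948), then Dennd4c (0.927) and Adgrg5, an adhesion receptor (0.914), among 7462 genes. Nearest to Ly6e were Laptm5, a lysosomal membrane protein of blood cells (0.891), Fam126a (0.883) and Csnk1g1, a casein kinase (0.873). Nearest to Ly6k were Snrpd3, a core splicing protein (0.773), Siah1a, a ubiquitin ligase (0.765), and Scp2, a sterol carrier protein (0.730). The members were less like each other, at 0.300 for Ly6a and Ly6e, 0.229 for Ly6a and Ly6k and 0.213 for Ly6e and Ly6k.

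The authors' deposited table of cluster genes names Ly6a in 3 of its 7 clusters. In the authors' deposited table its log2 fold change was 1.13 in the cluster called CD8 TCM, where 90.9% of cells had it. It was 0.87 in the cluster called CD8 TRM TEM in the authors' deposited table, and 0.60 in CD4 Th1. Ly6e appears in the authors' deposited table in CD4 Th1 alone, at 0.28 (43.7% of cells). Entries of that table begin at 0.25 on the log2 scale and at 10% of the cells of a cluster. Other members are not listed in the authors' deposited table.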

How the data were processed

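The deposited matrices hold, per the file headers, raw counts of UMIs per gene and cell, written by cellranger 6.0.0, while the submitters' processing notes name Cell Ranger 6.1.2 and Seurat. Genome build and annotation were not given in the sources used here. For 7 clusters the authors' deposited cluster table holds, per the file headers, log2 fold changes, p-values and fractions of cells with a gene, and its tool and cells are not stated.

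Cells with at least 500 genes and under 10% mitochondrial UMIs were kept. Doublets were the cells with the highest Scrublet scores (scanpy 1.11.5), removed at 0.8% for every 1000 barcodes of a library, and T cells had at most 1 UMI over 6 B and myeloid genes. This left 70970 cells. Counts were summed per library and gate and fitted across all genes with edgeR 4.0.16 (R 4.3.3, TMM, filterByExpr, quasi-likelihood test, Benjamini-Hochberg, threshold 0.05), with day as a block for PPCA against vehicle and library as a block between gates. Day pairs the libraries: same-day deviations correlated at 0.167 to 0.677. The fits were tested on simulated counts. DESeq2 1.42.0, other filters, scalings and left-out libraries were alternatives. Levels are CPM with exact Poisson 95% intervals. The named genes are the members, the gate genes, the 3 genes most like each member by Pearson correlation of log2(CPM + 1) among genes of at least 10 CPM, and the 3 highest and 3 lowest called genes of each list. The members and lists were chosen with earlier results of these data known.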

Additional observations from a re-analysis of the deposited data

How the results depend on the processing

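Of 360 recomputed fold changes of single Ly6 genes, 327 kept their direction and side of the threshold, 8 lost a call, 6 gained one and 19 changed sign; the cause was not tested. Library totals without TMM, the libraries with Y-linked transcripts, and leaving out the onset and PPCA day 3 libraries were chosen after seeing the data.

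Counts of called genes for PPCA were 34, 41, 24 and 34 with DESeq2 in CD4-gated, CD8-gated, Ccl5-positive and Ccl5-negative cells. Without a low-count filter they were 181, 156, 143 and 166, and 90 in Foxp3-positive cells. With Y-linked transcripts as a factor they were 126, 358, 256, 216 and 32, with 1 Ly6 gene, Ly6e, among them in CD8-gated and 1 in Ccl5-negative cells. Library totals gave 28 in Ccl5-positive and 18 in Ccl5-negative cells, and no doublet removal 0 in CD8-gated cells. Leaving out a day gave 0 to 102, 0 to 217, 4 to 181, 0 to 220 (0 to 1 Ly6 gene) and 13 to 104 in the 5 gates, and 0 to 2 for the difference between CD8 and CD4, with the highest counts of the 5 gates without day 4.

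With no replicate block, the PPCA counts were 0 in CD8-gated, Ccl5-positive and Foxp3-positive cells. Between gates the library block mattered more: with no replicate block 2011 genes were called for CD8 against CD4 (1 Ly6 gene, with Ly6e at an adjusted p of 0.383), 2002 for Ccl5 and 2253 (0 Ly6 genes) for Foxp3, where the adjusted p was 0.445 for Ly6a, 0.279 for Ly6e and 0.314 for Ly6k. The block changed no other call of a Ly6 gene. Thinned cells gave 3281 genes for CD8 and 2142 for Foxp3, and the libraries with Y-linked transcripts 2745 for Ccl5.

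Leaving out a day, PPCA fold changes (log2) ran from -0.21 to 0.043, -0.11 to 0.20, -0.042 to 0.26 and -0.14 to 0.20 for Ly6a and from -0.59 to 0.51, -0.41 to 0.81, -1.12 to 0.76 and -0.12 to 0.90 for Ly6k, in CD4-gated, CD8-gated, Ccl5-positive and Ccl5-negative cells. For Ly6e in Foxp3-positive cells they ran from -0.38 to 0.032, and for the CD8-CD4 difference of Ly6k from -0.012 to 0.21. Ly6k in Ccl5-positive cells was 0.20 without doublet removal. For Ccl5-positive against Ccl5-negative cells, Ly6a was 0.0012 without doublet removal, 0.020 in libraries without Y-linked transcripts, 0.089 with library totals and -0.085 to 0.015 leaving out a library; Ly6e was -0.049 in libraries without Y-linked transcripts and -0.0043 in thinned cells. There 2 Ly6 genes were called with library totals, beside 46.2% of all 10392 genes tested. In libraries with Y-linked transcripts 2 were called, and 1 to 2 leaving out a library. Without thinning, the PPCA minus vehicle share was -3.78 percentage points for Ly6a in Ccl5-negative, -2.84 in Foxp3-positive and 0.207 for Ly6k in Ccl5-positive cells.

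Depth limits Ly6c1, Ly6c2 and, in Ccl5-positive and Foxp3-positive cells, Ly6k, whose counts are too few to show small differences.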
